A study of Mus musculus with 16 samples.

Results

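A set of 10 genes of MHC class I antigen presentation was followed through 2 RNA-seq experiments on mouse granulosa cells (mGCs), the somatic cells that surround and feed the oocyte in the ovarian follicle. They are the heavy chain genes H2-K1, H2-D1, H2-Q4, H2-Q6, H2-Q7, H2-Q10 and H2-T23, the light chain gene B2m, and the peptide transporter genes Tap1 and Tap2. They were taken by symbol, and all 10 were found among the 57010 genes of both tables. H2-Q10 was selected on its read counts in these libraries, being higher after 14,15-EET than after PBS, so that difference is described and not tested. The other genes were taken for their place in the same pathway, with earlier results of these data known.

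Class I molecules display short peptides from inside the cell to CD8+ T cells and natural killer cells. The proteasome cuts proteins into peptides, the TAP transporter carries them into the endoplasmic reticulum, and a heavy chain folds there with beta-2-microglobulin around a peptide before it travels to the surface. H2-K1 and H2-D1 encode the classical heavy chains, which most nucleated cells make. The H2-Q and H2-T genes encode nonclassical heavy chains with narrower roles, and interferon-gamma, through IRF1 and the transactivator NLRC5, is the best known inducer of the pathway.

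All mice were female and of the outbred ICR strain, bought at 6 weeks of age. In the EM group, endometrium from estradiol-treated donor mice had been sutured into the abdomen as a model of endometriosis, and the Con group had sham surgery. Recipients received 17β-estradiol for 14 days, a washout and ovulation induction on day 30 with PMSG or HCG. Freshly isolated mGCs of 5 Con mice (Con-mGC) and 5 EM mice (EM-mGC) were sequenced in the first experiment. In the second, mGCs from 6 EM mice were split and cultured in medium with 5% serum. Treatment was with 100 nM 14,15-EET, an epoxide of arachidonic acid, in the EET libraries or with PBS as the vehicle, for 24 h and with 3 libraries each. A figure legend of the authors places another 24 h of culture before this treatment, which their methods text does not state. The implants came from other animals of an outbred strain, and the MHC haplotypes of donors and recipients were not measured here. Which of the 6 mice went into which cultured library is not given in the sources used here, and the p-values measure the spread between these libraries.

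Between 14229123 and 15999234 reads per library were counted on genes in the fresh experiment and between 21384686 and 29482826 in the cultured one. Mitochondrial genes took 6.76% to 11.1% of the reads in 9 fresh libraries and 21.8% in EM-mGC-3. Foxl2, the granulosa transcription factor, stood at 232 ± 24.9 CPM (TMM-scaled counts relative to library size, SD, n = 5) in Con-mGC and 127 ± 7.72 CPM (SD, n = 3) in PBS, so both kinds of library carried granulosa transcripts. The aromatase gene Cyp19a1, another marker of these cells, averaged 253 CPM in Con-mGC but 0.146 CPM in PBS. The fresh libraries also held leukocyte transcripts. Of 24 leukocyte markers none was at 0 in all fresh libraries, and their summed level ranged from 299 to 642 CPM in Con-mGC and from 439 to 1067 CPM in EM-mGC. In culture the same sum was 16.9 to 29.8 CPM, 6 of the 24 markers were at 0 throughout, and Ptprc, which encodes the pan-leukocyte antigen CD45, had at most 1 read in any library. In such bulk samples, fewer cells of a type and less RNA per cell cannot be told apart.

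The promoters of 5 heavy chain genes are shown because they share a block of regulatory letters that H2-Q10 holds only in part. The sequences are from RefSeq, on the build GRCm38.p6, and each lies within the 250 bases before the annotated start and is written 5′ to 3′ along the gene. Capitals mark, in this order, the NF-kB type letters GGGATTNCC of enhancer A, the interferon response type letters TTTCACTTC, the X2 box type letters TGNTGAC, and CCAAT, which also appears as ATTGG where it lies on the other strand.
H2-K1, chr17:34000335-34000461, minus strand: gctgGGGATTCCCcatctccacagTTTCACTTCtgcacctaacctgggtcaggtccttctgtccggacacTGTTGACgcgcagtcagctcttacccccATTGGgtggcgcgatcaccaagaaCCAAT
H2-D1, chr17:35262920-35263045, plus strand: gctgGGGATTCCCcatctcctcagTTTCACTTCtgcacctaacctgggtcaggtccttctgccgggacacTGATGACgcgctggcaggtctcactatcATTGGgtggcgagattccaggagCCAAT
H2-Q4, chr17:35379440-35379566, plus strand: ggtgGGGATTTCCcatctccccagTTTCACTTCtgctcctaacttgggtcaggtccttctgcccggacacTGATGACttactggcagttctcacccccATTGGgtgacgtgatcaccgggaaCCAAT
H2-Q7, chr17:35439018-35439143, plus strand: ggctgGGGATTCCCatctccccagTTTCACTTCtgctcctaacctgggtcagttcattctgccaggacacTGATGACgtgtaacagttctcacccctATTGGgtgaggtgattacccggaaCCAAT
H2-Q10, chr17:35469910-35470038, plus strand: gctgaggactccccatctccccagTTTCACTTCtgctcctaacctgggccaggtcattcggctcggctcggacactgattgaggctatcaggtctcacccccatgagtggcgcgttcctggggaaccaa
Of these 5 windows, 4 held every motif, and H2-Q10 held only the interferon response letters. Among 9 of the 10 genes with a promoter in the table, H2-Q6 held the same set as H2-K1, H2-T23 and B2m held the X2 letters and 1 CCAAT each, and Tap1 held 1 CCAAT. Over the whole promoter of H2-Q10 in the table, from 250 bases before to 50 after its start, the NF-kB, X2 and CCAAT letters were found 0 times on either strand. Of 32851 mouse promoters of that length, 0.938% held the NF-kB letters, 0.505% the interferon response letters, 14.1% the X2 letters and 37.4% a CCAAT. The motifs were picked after these sequences were read, they do not overlap each other in the windows shown, and a match is a description of letters and not of binding. Tap2 was not matched.

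In the deposited coordinates, on GRCm39 by the submitters' notes, H2-K1 lies at chr17:34214991-34219321 on the minus strand, H2-D1 at chr17:35481706-35486475 and H2-Q10 at chr17:35780986-35785460 on the plus strand, all protein-coding genes of the MHC. B2m lies apart from the MHC, at chr2:121978167-121983564. The heavy chains are close relatives, which bears on every count below. Along the longest coding transcripts of the GRCm38 annotation, aligned pairs of the 7 heavy chain genes were identical at 75.7% (H2-Q6 and H2-Q10) to 90.7% (H2-K1 and H2-D1) of positions. H2-Q10 was 88.7% identical to H2-D1 and 85.9% to H2-K1. Reads were 150 bases long. No stretch of that length in the H2-K1, H2-Q4 or H2-Q10 transcript occurred whole in a transcript of another gene, against 1.79% of such stretches in H2-D1, 0.831% in H2-T23, 5.99% in H2-Q6 and 9.68% in H2-Q7. H2-Q6 shared its stretches with H2-Q7, and H2-Q7 shared its own with H2-Q6 and H2-Q5. At 75 bases the share rose to 4.64% for H2-Q10 and 6.9% for H2-D1. The reference is that of the inbred strain C57BL/6J, whereas ICR mice carry mixed haplotypes, and how the authors treated reads that fit several genes is not given in the sources used here. B2m, Tap1 and Tap2 shared no stretch of either length.

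Per kilobase of transcript, B2m was the most abundant of the 10 genes in every group. In Con-mGC its median level was 259 CPM per kilobase, followed by H2-D1 at 132 and H2-K1 at 84.3, whose ranges overlapped. H2-Q4 (21.3), H2-T23 (17.8), Tap2 (15.2) and Tap1 (14.5) formed a second tier whose neighbours overlapped in range. H2-Q10 (0.991), H2-Q7 (0.411) and H2-Q6 (0.127) stood lowest and also overlapped. The order in EM-mGC was the same for the first 4 genes, and there the range of H2-D1 overlapped those of both B2m and H2-K1. In PBS the order was B2m (108), H2-D1 (55.5), H2-K1 (27.3), H2-Q10 (23.2), Tap2 (19.4), Tap1 (13.8), H2-T23 (11.4) and H2-Q4 (3.63 CPM per kilobase), with no overlap between neighbours. In EET, H2-Q10 (39.0) lay above H2-K1 (24.3).

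**Figure D1:**
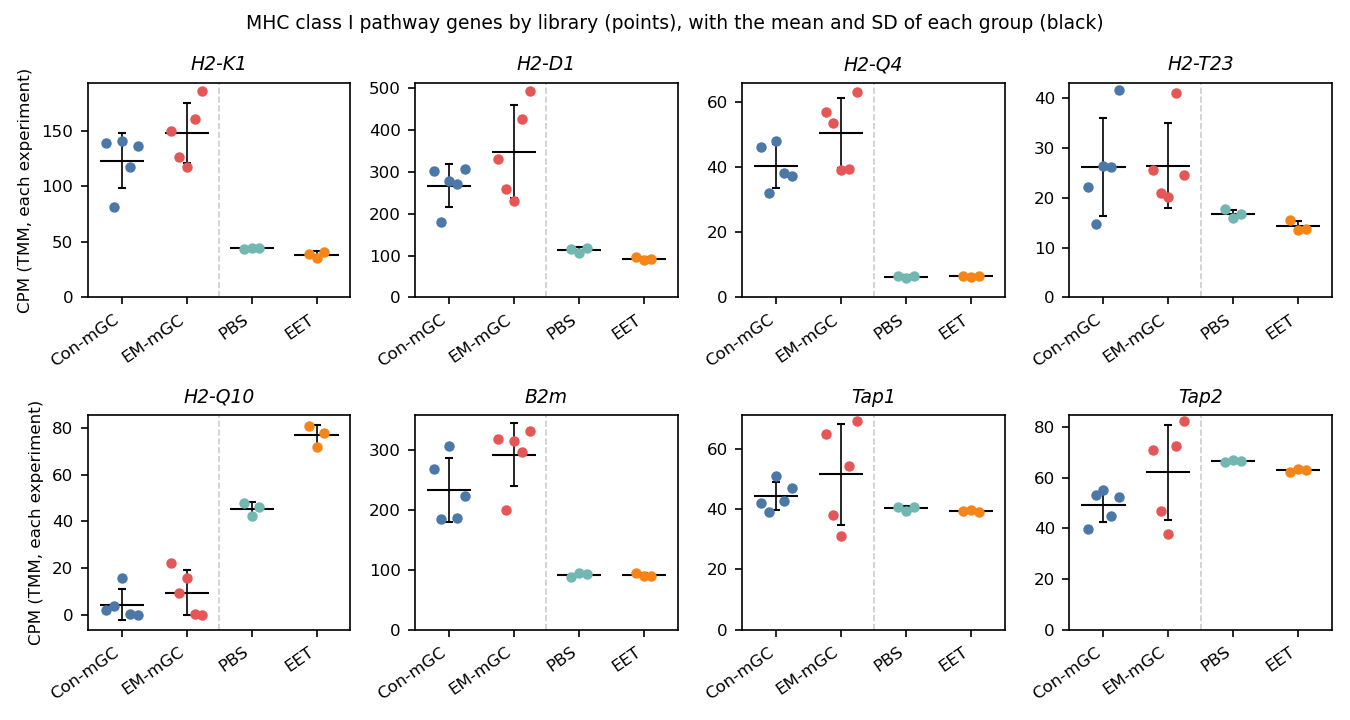
Level of 8 genes in CPM, normalized within each experiment, for each library (points) of the 4 groups, with the group mean and SD in black and a dashed line between the fresh and the cultured experiment. H2-Q10 was between 42.4 and 80.8 CPM in culture and at most 22.4 CPM in fresh cells, whereas H2-K1, H2-D1, H2-Q4 and B2m were higher in fresh cells.

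The first comparison asks whether mGCs of mice with ectopic endometrium carry other transcript levels than those of sham-operated mice. None of the 8 tested class I genes changed by edgeR's quasi-likelihood test at an adjusted p of 0.05, and their groups overlapped for 8 of 8 genes. The mean was nevertheless higher in EM-mGC for each of the 8, with a median log2 fold change of 0.32, against -0.01 over all 17229 genes tested, of which 8296 were higher. None had an unadjusted p under 0.05. Over all genes edgeR called 0 of 17229 genes (0%), with 1626 at an unadjusted p under 0.05 and a smallest adjusted p of 0.207, and DESeq2 called 116 genes, among them 0 of the 8. Groups did not overlap for 1.69% of all genes.

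H2-D1 gave the widest spread of the classical genes. Its level was 302, 179, 278, 272 and 306 CPM in the 5 Con-mGC libraries and 330, 259, 231, 427 and 492 CPM in the 5 EM-mGC libraries. In EM-mGC 3 libraries lay above the whole Con-mGC range and the other 2 lay inside it, for a log2 fold change of 0.38 ± 0.22 (SE, edgeR adjusted p = 0.585). H2-K1 stood at 139, 81.8, 140, 118 and 137 CPM in Con-mGC and at 150, 127, 117, 160 and 186 CPM in EM-mGC. The lowest value came from Con-mGC-2 and the highest from EM-mGC-5, the same libraries that were lowest and highest for H2-D1, and the log2 fold change was 0.27 ± 0.16 (SE, edgeR adjusted p = 0.617). Without EM-mGC-3, the library rich in mitochondrial reads, the log2 fold change was 0.50 for H2-D1 and 0.34 for H2-K1, and 0 of the 8 genes were called. Over all such omissions of 1 library the value ran from 0.22 (without EM-mGC-5) to 0.50 for H2-D1 and from 0.15 (without Con-mGC-2) to 0.34 for H2-K1.

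H2-Q4, a nonclassical gene whose product is secreted, was at 46.1, 31.9, 48.1, 38.1 and 37.2 CPM in Con-mGC and at 57.0, 53.5, 39.0, 39.6 and 63.0 CPM in EM-mGC. In EM-mGC 3 libraries were above every Con-mGC library, with a log2 fold change of 0.32 ± 0.16 (SE, edgeR adjusted p = 0.543, the smallest of the 8). H2-T23 encodes Qa-1, which presents leader peptides of other class I chains to the NKG2A receptor. It had a log2 fold change of 0.01 ± 0.26 (SE, edgeR adjusted p = 0.988) and its sign turned when Con-mGC-1, Con-mGC-2 or EM-mGC-4 was left out (down to -0.20). H2-Q6 and H2-Q7, which encode the membrane-anchored Qa-2, were nearly silent. They had 2 to 10 and 2 to 12 reads per fresh library, too few to be tested, and 0 reads in all cultured libraries, where 3 counts would be 0.102 to 0.140 CPM (counting error only).

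B2m, the light chain that nearly every class I heavy chain needs for folding, was at 268, 185, 306, 186 and 223 CPM in Con-mGC and at 318, 201, 315, 297 and 331 CPM in EM-mGC. In EM-mGC 4 libraries lay between 297 and 331 CPM, and EM-mGC-2 sat among the low Con-mGC libraries. The log2 fold change was 0.33 ± 0.17 (SE, edgeR adjusted p = 0.567). The leukocyte markers were also on the higher side in EM-mGC. Their mean was higher for 18 of the 24, with a median log2 fold change of 0.57, 12 had an unadjusted p under 0.05 and 0 passed the adjusted test. Lyz2, the lysozyme of macrophages and neutrophils, averaged 125 CPM in Con-mGC and 276 CPM in EM-mGC. Their part in the B2m values was not tested.

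The TAP subunits went together. Tap1 was at 42.0, 38.9, 51.1, 42.8 and 47.0 CPM in Con-mGC and at 65.1, 37.9, 31.0, 54.4 and 69.3 CPM in EM-mGC, and Tap2 was at 39.7, 53.3, 55.1, 45.1 and 52.3 CPM against 71.03, 47.0, 37.7, 72.6 and 82.5 CPM. For both genes EM-mGC-1, EM-mGC-4 and EM-mGC-5 were above the Con-mGC range and EM-mGC-3 was below it. The log2 fold changes were 0.22 ± 0.20 for Tap1 and 0.34 ± 0.19 for Tap2 (SE, edgeR adjusted p = 0.742 and 0.588). Without EM-mGC-5 they were 0.09 and 0.22, and without EM-mGC-3 they were 0.35 and 0.48.

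H2-Q10 had the largest log2 fold change of the 8, and the largest standard error. Its product, Qa-10, is secreted and best known from liver and serum. It had 30, 63, 256, 5 and 2 reads in the 5 Con-mGC libraries and 321, 146, 189, 3 and 2 reads in the 5 EM-mGC libraries. The libraries numbered 4 and 5 had next to none in both groups, and those numbered 1 to 3 had 30 to 256 in Con-mGC and 146 to 321 in EM-mGC, so the values overlapped with and without the low libraries. The log2 fold change was 1.10 ± 1.18 (SE, edgeR adjusted p = 0.778). It was 2.60 without Con-mGC-3 and 0.51 without EM-mGC-1, and neither passed.

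**Figure D2:**
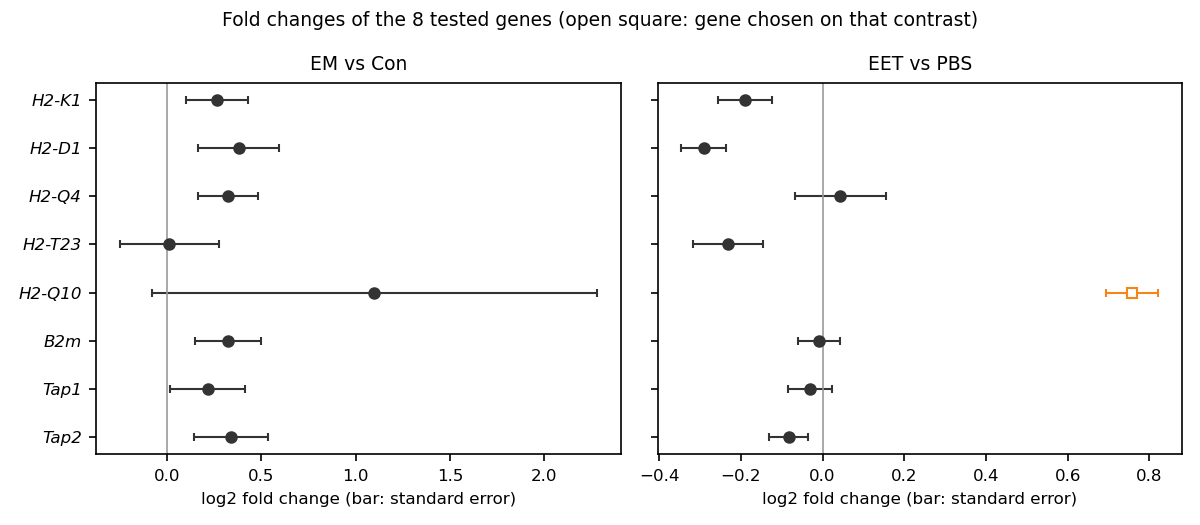
Log2 fold change of 8 genes (points) with its standard error (bars) in EM-mGC against Con-mGC (left) and in EET against PBS (right); the 2 horizontal scales differ. The fresh cells gave values from 0.01 to 1.10, none of which was called, and the cultured cells gave small negative values for H2-K1, H2-D1 and H2-T23 and 0.76 for H2-Q10 (open square, not tested).

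The second comparison asks what 14,15-EET alters in mGCs of EM mice in culture. H2-Q10 was higher in all 3 EET libraries, as its choice required, and H2-D1 fell. H2-Q10 was at 48.0, 42.4 and 46.1 CPM in PBS and at 80.8, 72.1 and 77.7 CPM in EET. The means were 45.5 ± 2.86 CPM and 76.9 ± 4.43 CPM (SD, n = 3 each). This is 1.69-fold, or a log2 fold change of 0.76. The gap was the ground for choosing the gene, so its size is a description and no support. The raw reads behind it were 1011 to 1283 in PBS and 1855 to 2379 in EET.

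Of the other 7 tested genes, 1 was called, against a background of 184 of 15050 genes (1.22%), of which 75 were higher (0.498%) and 109 lower (0.724%). That gene was H2-D1. It stood at 117, 107 and 118 CPM in PBS and at 97.0, 89.0 and 92.8 CPM in EET. All EET libraries were lower than all PBS libraries, and the level fell to 0.817 of that in PBS, a log2 fold change of -0.29 ± 0.05 (SE, edgeR adjusted p = 0.0230). The call was lost without PBS-3, EET-2 or EET-3 (edgeR adjusted p = 0.102, 0.154 and 0.162), at log2 fold changes of -0.27, -0.26 and -0.29, and DESeq2 gave an adjusted p of 0.00100.

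H2-K1 was at 43.6, 44.6 and 44.3 CPM in PBS and at 39.4, 35.3 and 41.4 CPM in EET. The values did not overlap, but the log2 fold change of -0.19 ± 0.07 (SE) did not pass (edgeR adjusted p = 0.244). H2-T23 was at 17.6, 15.97 and 16.8 CPM in PBS and at 15.5, 13.6 and 13.7 CPM in EET. It too was lower in 3 of 3 EET libraries without passing, at -0.23 ± 0.09 (SE, edgeR adjusted p = 0.279). H2-Q4 was at 6.69, 5.92 and 6.51 CPM in PBS and at 6.66, 6.28 and 6.74 CPM in EET, which overlap, at 0.04 ± 0.11 (SE, edgeR adjusted p = 0.910).

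The light chain and the transporter differed little between the cultures. B2m was at 88.5, 94.2 and 92.6 CPM in PBS and at 95.1, 89.4 and 89.2 CPM in EET, a log2 fold change of -0.01 ± 0.05 (SE, edgeR adjusted p = 0.965). Tap1 was at 40.6, 39.4 and 40.9 CPM against 39.5, 39.8 and 39.0 CPM, and its log2 fold change was -0.03 ± 0.05 (SE, edgeR adjusted p = 0.858). Tap2 was at 66.2, 67.2 and 66.7 CPM against 62.2, 63.5 and 63.3 CPM, lower in 3 of 3 EET libraries at -0.08 ± 0.05 (SE, edgeR adjusted p = 0.506). Including H2-K1, H2-D1, H2-T23 and Tap2, 4 of these 7 genes did not overlap between groups, against 17.6% of all genes tested, and their median log2 fold change was -0.08 against 0.00 over all genes.

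H2-Q10 was chosen for its rise, so the makeup of a heavy chain pool that holds it had to differ between the 2 groups. The totals of the pool overlapped. Reads on all 7 heavy chain genes together came to 232, 216 and 231 CPM in PBS and 239, 216 and 232 CPM in EET, a log2 fold change of 0.02 ± 0.05 (SE). H2-Q10 held 20.6%, 19.6% and 19.96% of these reads in PBS and 33.8%, 33.3% and 33.4% in EET. The share of H2-D1 was 49.6% to 50.8% in PBS and 39.9% to 41.2% in EET, and that of H2-K1 was 18.7% to 20.7% and 16.3% to 17.8%. H2-Q4 held 2.75% to 2.91% in both groups. In a share, a rise of 1 gene lowers the others, so these percentages restate the levels above and were not tested. In the fresh libraries H2-D1 held 54.5% to 64.2% and H2-Q10 at most 3.82%.

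**Figure D3:**
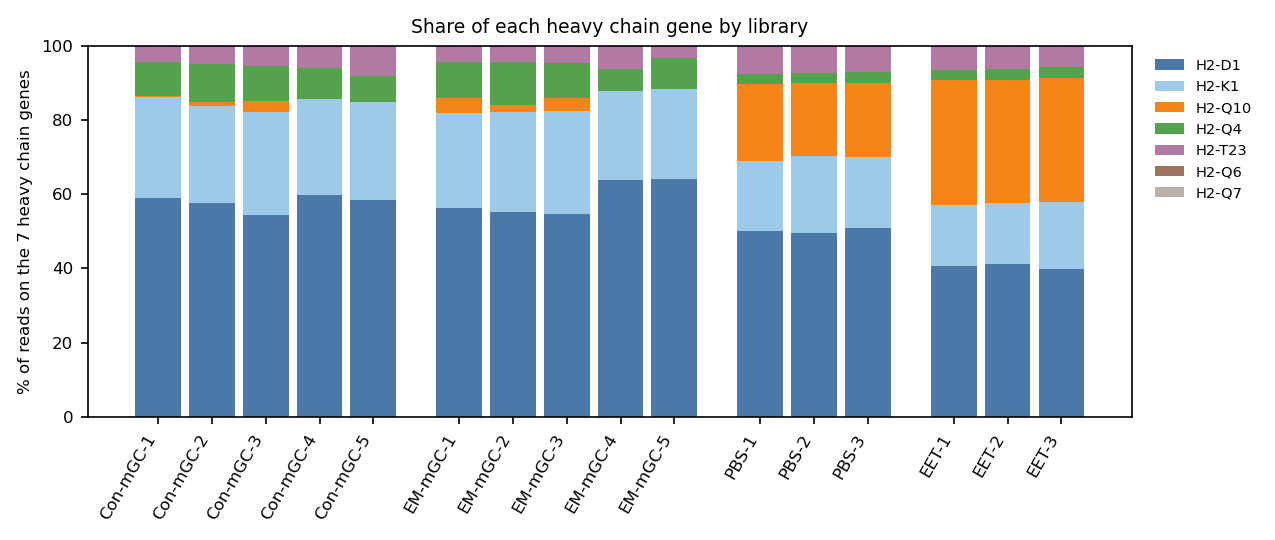
Share of the reads on 7 heavy chain genes taken by each gene (stacked bars, in %), for each of the 16 libraries. H2-Q10 takes at most 3.82% in the fresh libraries, 19.6% to 20.6% in PBS and 33.3% to 33.8% in EET.

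The rest of the pathway was read from lists fixed by gene name. Peptide loading and trimming genes (14 tested in each experiment, with B2m, Tap1 and Tap2 among them) gave 0 calls in either comparison. Tapbp, the tapasin that holds TAP to the empty heavy chain, had a log2 fold change of 0.09 in EM-mGC and -0.03 in EET. The chaperones Calr, Canx and Pdia3 had values from 0.02 to 0.04 and from 0.00 to 0.07, and Erap1, which trims peptides in the endoplasmic reticulum, had -0.09 and -0.07. None of these passed the test.

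The proteasome subunits were on the higher side in EM-mGC without a call. All 6 genes of the immunoproteasome and its PA28 activator had a positive log2 fold change (median 0.23). So had all 14 subunits of the constitutive 20S core (median 0.22), and 0 of either list passed. The sums overlapped, at 248 to 312 CPM in Con-mGC and 251 to 348 CPM in EM-mGC for the first list. For the 20S core they were 1264 to 1679 CPM in Con-mGC and 1550, 1600, 2078, 1650 and 1557 CPM in EM-mGC. Only EM-mGC-3, rich in mitochondrial reads, lay above the Con-mGC range of the 20S core. Psmb8, an interferon-inducible catalytic subunit, was at 14.1 ± 2.02 CPM in Con-mGC and 21.8 ± 6.89 CPM in EM-mGC (SD, n = 5 each), with a log2 fold change of 0.63 ± 0.21 (SE, edgeR adjusted p = 0.462). Psmb9 and Psmb10 had 0.35 and 0.23, and the constitutive catalytic subunits Psmb5, Psmb6 and Psmb7 had 0.20, 0.18 and 0.32. In EET the medians were -0.05 and -0.06 with 0 calls. Psmb9 overlaps Tap1 on the opposite strand, with 204 to 419 reads in fresh and 48 to 98 in cultured libraries, and whether the counting used the strand is not given in the sources used here. Patl2 overlaps B2m in the same way, with 5 to 107 reads in fresh cells and at most 1 in culture.

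Regulators of class I transcription did not pass in either comparison (14 tested in each). Nlrc5, the class I transactivator, was at 17.9 ± 3.95 CPM in Con-mGC and 19.2 ± 8.97 CPM in EM-mGC (SD, n = 5 each). In culture it was at 2.47 ± 1.12 CPM in PBS and 1.25 ± 0.31 CPM in EET (SD, n = 3 each), with values that overlapped and a log2 fold change of -1.01 ± 0.31 (SE, edgeR adjusted p = 0.186). Irf1 had 0.40 in EM-mGC (edgeR adjusted p = 0.498) and -0.16 in EET (edgeR adjusted p = 0.549). The interferon-gamma receptor chain Ifngr1 had 0.12 and 0.01 and did not pass.

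Of the interferon-stimulated genes, 36 were tested in fresh and 25 in cultured cells. None was called in EM-mGC, where 14 of 36 were higher, 22 were lower and the median log2 fold change was -0.15. Single genes ran from -0.89 (Ifi44) to 0.97 (Tgtp1), a spread that the median does not show. Gbp2, Gbp3, Gbp5 and Gbp7 had 0.53, 0.04, 0.63 and 0.23, whereas Ifit1, Ifit2 and Ifit3 had -0.84, -0.11 and -0.49. In EET 1 of 25 was called, against 1.22% of all genes tested. Irgm1, an interferon-inducible GTPase, fell from 22.1 ± 2.48 to 15.1 ± 0.46 CPM (SD, n = 3 each), a log2 fold change of -0.55 ± 0.09 (SE, edgeR adjusted p = 0.0102), and the median of the list was -0.02. Among other class I and class I-like genes 0 of 13 were called in EM-mGC and 1 of 10 in EET, against the same 1.22%. This was Procr, the endothelial protein C receptor, which has a class I-like fold, and it fell from 69.5 ± 5.25 to 49.9 ± 4.26 CPM (SD, n = 3 each), a log2 fold change of -0.48 ± 0.07 (SE, edgeR adjusted p = 0.00727). H2-T22 was at 24.9 ± 1.98 CPM in PBS and 21.7 ± 0.67 CPM in EET (SD, n = 3 each; edgeR adjusted p = 0.306), and H2-M3, which presents formylated peptides, had a log2 fold change of 0.02.

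Class II genes give a contrast by cell type, since they belong mainly to professional antigen-presenting cells. Cd74, the invariant chain, averaged 69.0 CPM in Con-mGC and 67.7 CPM in EM-mGC, and had at most 2 reads per library in culture. H2-Ab1 averaged 13.4 and 14.4 CPM in fresh cells and 1.09 and 0.83 CPM in PBS and EET. None of the 9 class II pathway genes tested in fresh cells or the 5 tested in culture was called. Of the granulosa markers, 0 of 14 were called in EM-mGC. In EET 1 of 12 was called, as Inha, the inhibin alpha subunit, fell from 2471 ± 226 to 1922 ± 161 CPM (SD, n = 3 each), a log2 fold change of -0.36 ± 0.08 (SE, edgeR adjusted p = 0.0430). Of these 12 markers 8 were lower in EET, 7 of the 12 had an unadjusted p under 0.05, and the median log2 fold change was -0.15. Over all 15050 genes tested in culture, 7585 were higher in EET, 1868 had an unadjusted p under 0.05 and 1.22% were called. The summed level of the list was 6236 to 6724 CPM in PBS and 5795 to 6180 CPM in EET, without overlap, and its part in the lower H2-D1 level was not tested. No endothelial, theca and stromal, oocyte or red blood cell marker was called in EM-mGC (10, 10, 9 and 6 tested). In EET 0 of 5 endothelial, 0 of 9 theca and stromal and 0 of 1 oocyte markers were called. The red blood cell markers were too low in culture to be tested. In fresh cells the endothelial markers were lower in EM-mGC for 10 of 10 genes (median -0.25), with sums that overlapped. The theca and stromal markers were lower for 7 of 10 genes, with a median of -0.40. Their sum was 1973 to 2228 CPM in Con-mGC and 1039 to 1800 CPM in EM-mGC, without overlap. The oocyte markers had a median of -0.29, with overlapping sums of 368 to 821 CPM in Con-mGC and 109 to 828 CPM in EM-mGC. The red blood cell markers had a median of 0.61, with sums of 3778 to 5942 CPM in Con-mGC. Their sums in EM-mGC were 6151, 2648, 17418, 4885 and 5084 CPM, by far the highest in EM-mGC-3, the library rich in mitochondrial reads. The part of these lists in the class I values was not tested.

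Set side by side, fresh and cultured cells of EM mice stood furthest apart in H2-Q4 and H2-Q10, among the genes with reads in both experiments. H2-Q6 and H2-Q7 had 0 reads in culture and so gave no ratio. The median in EM-mGC was 8.22 times that in PBS for H2-Q4, 3.399 times for B2m, 3.38 times for H2-K1 and 2.83 times for H2-D1, each on its experiment's own scale. For H2-T23 and Tap1 it was 1.47 and 1.34 times, and for Tap2 1.07 times. H2-Q10 went the other way, with a median in PBS 4.81 times that in EM-mGC. Its EM-mGC libraries ran from 0.138 to 22.4 CPM, so this ratio depends strongly on the library. With 1 normalization over all 16 libraries, an alternative added after the data were seen, the ratios were 6.55, 2.71, 2.73, 2.28, 1.17, 1.07 and 0.859, so that Tap2 turned direction, and the PBS median of H2-Q10 was 6.03 times that in EM-mGC. Culture, animals and sequencing changed together between the experiments and cannot be told apart, the leukocyte sum was lower in culture as given above, and no test was made.

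Over the 10 fresh libraries the classical genes tracked each other. The gene most like H2-K1 was H2-D1, and the reverse also held, with a Pearson r of 0.95 on log2 CPM (Spearman rho 0.94, and r = 0.90 without the 2 libraries farthest from the H2-K1 median). This is a description over 10 libraries of 2 groups, which share a normalization. Other genes alike to H2-K1 were Lcn2 (r = 0.88), Lgi2 (0.88), Rnls (0.86) and B4galt1 (0.86). Without the 2 farthest libraries these had 0.68, 0.64, 0.62 and 0.30. For H2-D1 they were Swap70 (0.87), B3glct (0.87), Lcn2 (0.86) and Vps37d (0.86). Without the 2 libraries farthest from the H2-D1 median these had 0.94, 0.88, 0.70 and 0.85. Tap1 and Tap2 had r = 0.90, and H2-Q10 had r = -0.53 with H2-D1 and -0.31 with H2-K1.

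B2m had another set of companions. Over the same libraries the genes most like it included Ccnb1ip1 (r = 0.97), Spi1 (0.94), Clec4a1 (0.94) and Exo5 (0.93). Spi1 encodes the myeloid transcription factor PU.1, and Clec4a1 a lectin of myeloid cells. These 4 stayed at 0.88 or above without the 2 libraries farthest from the B2m median. B2m had r = 0.71 with H2-K1 and 0.60 with H2-D1.

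**Figure D4:**
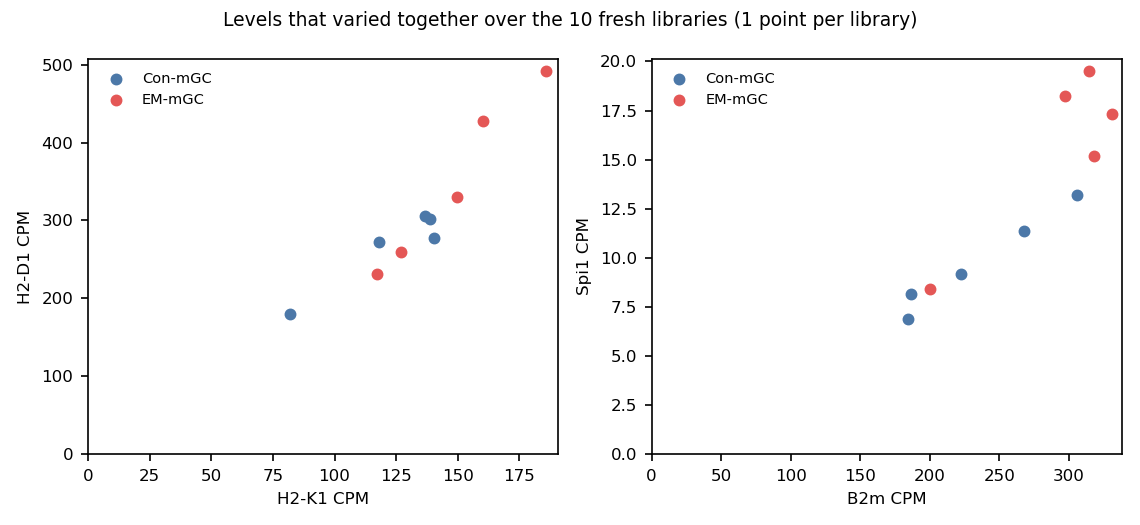
H2-D1 against H2-K1 (left) and Spi1 against B2m (right), in CPM, with 1 point for each of the 10 fresh libraries and axes from 0. Both pairs rise together over libraries of both groups, with r = 0.95 and 0.94 on log2 CPM.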

How the data were processed

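Poly(A) RNA of mGCs was sequenced in 16 libraries, from a strand-keeping kit, with 150 bases read from each end. The authors deposited 2 tables of raw counts per Ensembl gene, named as made with featureCounts, whose settings are not given in the sources used here. The submitters' processing notes name fastp, HISAT2, StringTie and GRCm39. Each library had a column of its own and 0 columns were left unused. Groups came from the labels.

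Each experiment was fitted alone in R 4.3.3 with edgeR 4.0.16. Genes were kept by filterByExpr with the group (minimum count 10), scaled by TMM and compared by the quasi-likelihood test with Benjamini-Hochberg adjustment over all genes tested, without a replicate block. Calls needed an adjusted p under 0.05. CPM values use TMM-scaled totals of the tested genes. Levels per kilobase use the longest coding transcript of GENCODE M21 (GRCm38), and promoters are those of RefSeq, GRCm38.p6. No coordinates were moved between builds.

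The genes and lists were chosen with earlier results of these data known. Named genes were the 10 genes, 21 pathway and marker genes fixed by name, any list gene called, and the 5 genes most correlated with H2-K1, H2-D1 and B2m. Of these, 2 genes are not reported here. Cyp19a1, Lyz2, Patl2, Ifi44, Tgtp1 and the Gbp and Ifit genes were named after their values were seen. No 2 libraries of a group agreed within sampling noise (chi-square per degree of freedom 2.79 or more). The methods call the cultured replicates paired without saying that their numbers mark the pairs. Same-number deviations correlated at 0.0602, 0.0980 and -0.0237, and those of different numbers at -0.133 to 0.0741. With 3 libraries per group these values cannot decide the pairing. Numbers were not used as pairs in the main fit. The steps were run on simulated data with 200 genes changed 3-fold. For the fresh design edgeR recovered 188 with 12 false calls, and DESeq2 194 with 48. For the cultured design both recovered 200, edgeR with 23 false calls and DESeq2 with 16. Smaller changes, such as those of the class I genes, were not simulated. Alternatives were DESeq2 1.42.0, RLE and upper-quartile scaling, other filters, protein-coding genes only, the replicate block, the heavy chains summed, and each library left out.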

Additional observations from a re-analysis of the deposited data

Results flagged for a closer look

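In 22 combinations of a gene, or the heavy chain sum, with a fresh group of 5 libraries, Dixon's gap test marked 4 libraries, and chance alone marks about 1 group in 20. B2m was lowest in EM-mGC-2, at 200.5 CPM, with the nearest library of that group at 297 CPM. H2-D1 was lowest in Con-mGC-2, at 179.4 CPM, with the nearest at 272 CPM. H2-Q10 was highest in Con-mGC-3, at 16.01 CPM, with the nearest at 3.86 CPM. H2-T23 was highest in EM-mGC-4, at 41.0 CPM, with the nearest at 25.6 CPM.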

How the results depend on the processing

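The number of class I genes called in EM-mGC against Con-mGC stayed at 0 under every alternative run. Over all genes edgeR's 0 calls there became 116 with DESeq2, 4 without a filter, 2 with the replicate block, and 0 to 46 with 1 library left out (46 without Con-mGC-3). H2-Q10 could not be fitted with at least 10 counts in every library. The log2 fold change of H2-T23 ran from -0.20 to 0.24 with 1 library left out. In EET against PBS the 184 calls became 322 with DESeq2, 662 without a filter, 341 with the replicate block, and 48 (without EET-3) to 436 (without PBS-2) with 1 library left out. The call of H2-D1 held under the other settings and was lost without PBS-3, EET-2 or EET-3, so the number of called class I genes was 0 to 1, and its adjusted p ran from 0.000122 to 0.162. The near-zero log2 fold changes of H2-Q4 (-0.0089 to 0.0778) and B2m (-0.0427 to 0.0089) turned sign with libraries left out. Summing the 7 heavy chains gave 0.02 (0.0178) in place of the lower values of H2-K1, H2-D1 and H2-T23, by its construction, since H2-Q10 is in the sum. The replicate block changed no call of a class I gene. With TMM over all 16 libraries, the PBS to EM-mGC ratio of Tap2 went from 0.938 to 1.16. For the other changes the cause was not tested. H2-Q6 and H2-Q7 had at most 12 reads per library and were not tested.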
